A study of Mus musculus with 18 samples.

Results

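Collagens are trimeric proteins of the extracellular matrix, and each chain is encoded by its own gene. Helices of the fibrillar types form the banded fibres of connective tissue, of which type I is the main product of fibroblasts. Type IV forms the sheet-like network of basement membranes, and types XV and XVIII are proteoglycan collagens attached to that membrane. The remaining types include the beaded filaments of type VI, the anchoring fibrils of type VII, network-forming types VIII and X, types that sit on fibrils such as IX, XII, XIV and XVI, and the transmembrane types XIII, XVII, XXIII and XXV. Pluripotent cells lay down mainly basement membrane components, whereas embryonic fibroblasts secrete fibrillar collagen in large amounts.

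The members were the 44 genes named Col with a type number and a chain number, out of 55471 genes in the files. They comprised 11 fibrillar genes (types 1, 2, 3, 5, 11, 24 and 27), 8 basement membrane genes (types 4, 15 and 18) and 25 others. Expression was measured by RNA-Seq in 18 libraries and 9 conditions. OSKM-ESCs were mouse embryonic stem cells moved from 2iL, which is N2B27 with the inhibitors PD0325901 and CHIR99021 and LIF, to N2B27 with doxycycline (DOX), and 2iL-ESCs stayed in 2iL. Both were collected at days 18, 25 and 38 with 2 cultures per day, all from a single Tet-On-OSKM/Oct4-GFP line. OSKM-iPSCs were clones 1 and 3 (passages 7 and 6), reprogrammed from mouse embryonic fibroblasts (MEF) and kept in N2B27 with DOX. 2iL-iPSCs were clones 3 and 6 (passages 2 and 3), reprogrammed in 2iL with DOX. For their daily culture the labels give N2B27 with DOX, whereas the study's methods give withdrawal of DOX after picking, so what these clones were kept in is uncertain. MEF were 2 libraries of passage 4 cells grown in DMEM with fetal bovine serum. All cells carried M2rtTA in Rosa26 and a DOX-inducible OSKM transgene (Oct4, Sox2, Klf4 and c-Myc) in the Col1a1 locus. The ESC line came from a cross of (C57BL/6 x 129S4/SvJae)F1 mice with (CBA/CaJ X C57BL/6J)F2 mice, and the strain of the iPSCs and MEF was (C57BL/6 x 129S4/SvJae)F1. The ESC line was derived and grown on mitomycin-C-treated MEF feeder cells and the iPSCs were induced on them, and the sources used here do not say whether feeders were removed before RNA was extracted.

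Levels are given as FPKM (fragments scaled by transcript length and by the mapped fragments of the library). This scaling lets levels of different genes be set side by side, but ratios between genes depend on the unit, as described with the chain ratios. The files hold no read counts and the depth in reads is unknown. The ratio of mean coverage to FPKM was taken near its upper end over all genes above 1 FPKM. There, a level of 1 FPKM stood for about 5.01 to 6.07 reads per base across the libraries. Libraries of one condition are separate cultures, clones or preparations by their labels, and where cultures came from 1 line the p-values measure the spread between these cultures only. The labelled cell types were checked against their markers. All 14 fibroblast markers were over 1 FPKM in both MEF libraries, all 8 pluripotent cell markers were over 1 FPKM in each of the 16 other libraries, and the summed level of the latter in MEF was at most 0.466 FPKM.

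Sequences before a start of 3 members are shown because these genes stand for the 2 patterns of level found here. Col18a1 was the most abundant collagen in every pluripotent condition, and Col1a2 and Col3a1 are fibrillar genes with a high level in MEF and a low level elsewhere. Of the 44 genes, 35 matched 38 windows of RefSeq (GRCm38.p6), each reaching from 250 bases before to 50 bases after an annotated start. Only the part outside annotated exons is printed, 5′ to 3′ on the gene's strand. For Col18a1 and Col3a1 it lies next to the gene's span in the files. For Col1a2 it lies inside that span (4504814 to 4541544), between annotated exons, and 127 exon bases were left out of the 250 bases before the RefSeq start at 4505618, so it does not reach that start. Capitals mark 3 motifs searched on either strand, namely the TATA box (TATAAA), the CCAAT box (CCAAT) and the Sp1-type GC box (GGGCGG), whose matches may overlap.
Col18a1, chr10:77166549-77166780, minus strand: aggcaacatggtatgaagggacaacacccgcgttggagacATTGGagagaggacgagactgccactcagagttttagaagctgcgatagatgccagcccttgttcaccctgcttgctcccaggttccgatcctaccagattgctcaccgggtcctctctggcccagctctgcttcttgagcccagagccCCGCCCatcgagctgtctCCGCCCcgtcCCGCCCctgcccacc
Col1a2, chr6:4505370-4505492, plus strand: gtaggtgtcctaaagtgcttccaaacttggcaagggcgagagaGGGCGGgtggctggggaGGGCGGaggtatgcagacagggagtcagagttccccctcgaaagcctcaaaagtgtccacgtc
Col3a1, chr1:45311288-45311537, plus strand: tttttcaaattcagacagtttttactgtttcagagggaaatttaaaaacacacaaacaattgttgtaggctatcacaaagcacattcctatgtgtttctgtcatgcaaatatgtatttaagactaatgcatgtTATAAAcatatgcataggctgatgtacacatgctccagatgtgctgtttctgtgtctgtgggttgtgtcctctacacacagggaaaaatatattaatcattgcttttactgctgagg
The stretch before the distal Col18a1 start held 3 copies of GGGCGG and 1 of CCAAT, that of Col1a2 held 2 copies of GGGCGG, and that of Col3a1 held 1 TATAAA. Over whole windows, GGGCGG was present in 23 of the 38 member windows, against 35.7% of all 32851 windows. CCAAT was present in 13 of 38 against 37.4%, and TATAAA in 5 of 38 against 13.6%. A match of letters is a description and says nothing of a bound factor.

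The fibroblasts set the scale against which the classes were read. In MEF the summed collagen level was 2558 and 2249 FPKM, and 27 of the 44 genes had a mean over 1 FPKM. Col1a1 and Col1a2, the chains of type I, took 43.98% and 42.6% of that sum, and Col18a1 took 0.692% and 0.794%. In the 16 pluripotent libraries the order was inverted. Col18a1 took between 35.1% and 82.5% of the summed collagen FPKM, and it was the highest collagen in each of the 8 pluripotent conditions, whereas it stood 16th in MEF. The composition of the collagen sum by library shows this exchange.

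**Figure D1:**
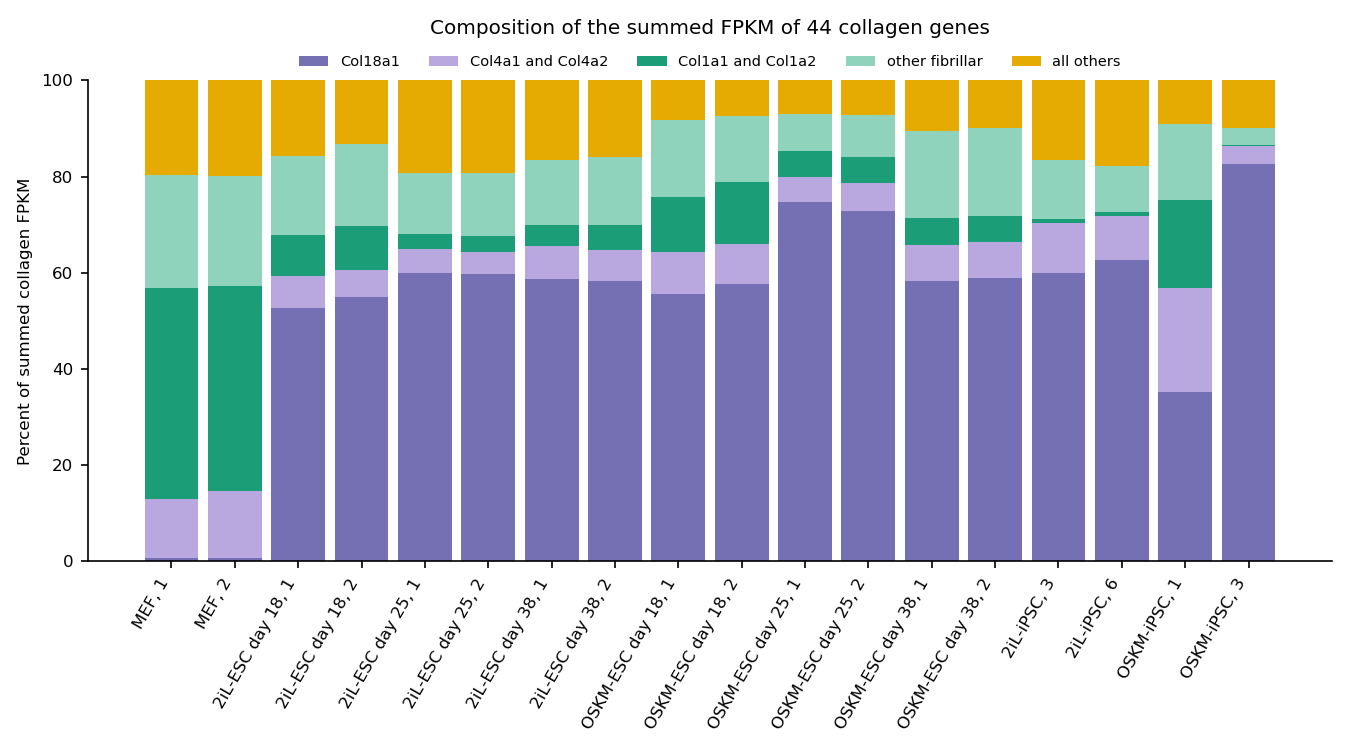
Share of the summed FPKM of the 44 collagen genes in each of the 18 libraries, in percent, stacked as Col18a1, Col4a1 with Col4a2, Col1a1 with Col1a2, the other fibrillar genes and all others. Type I leads in MEF (43.98% and 42.6%), and Col18a1 in all pluripotent libraries, with its lowest share (35.1%) in OSKM-iPSC clone 1.

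As a percent of the MEF mean, the fibrillar class had the lowest sum in OSKM-ESCs, 2iL-ESCs and 2iL-iPSCs. The order turned with a median over the members that were over 1 FPKM in MEF, by which the fibrillar class was the highest of the 3 (3.84%, 1.40% and 1.49%, against 3.38%, 0.365% and 0.416% for the basement membrane class and 1.64%, 0.149% and 0.0356% for the others). The fibrillar sum was 1.96% ± 0.364 of MEF in OSKM-ESCs (SD, n = 6), 0.479% ± 0.0439 in 2iL-ESCs (SD, n = 6) and 0.333% ± 0.0846 in 2iL-iPSCs (SD, n = 2). The other collagens were at 2.62% ± 0.376, 1.52% ± 0.589 and 1.71% ± 0.0587 in the same groups. The basement membrane class kept more, with 30.5% ± 8.19 in OSKM-ESCs, 7.09% ± 1.98 in 2iL-ESCs and 8.85% ± 0.615 in 2iL-iPSCs. Col18a1 made up most of this sum, and without it the basement membrane class was at 3.42% ± 0.367, 0.689% ± 0.0994 and 1.29% ± 0.212. In OSKM-iPSCs, by the same median, the basement membrane class was the highest (9.63%, against 6.60% fibrillar and 2.17% others), from means over 2 clones. The classes were not tested against each other.

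**Figure D2:**
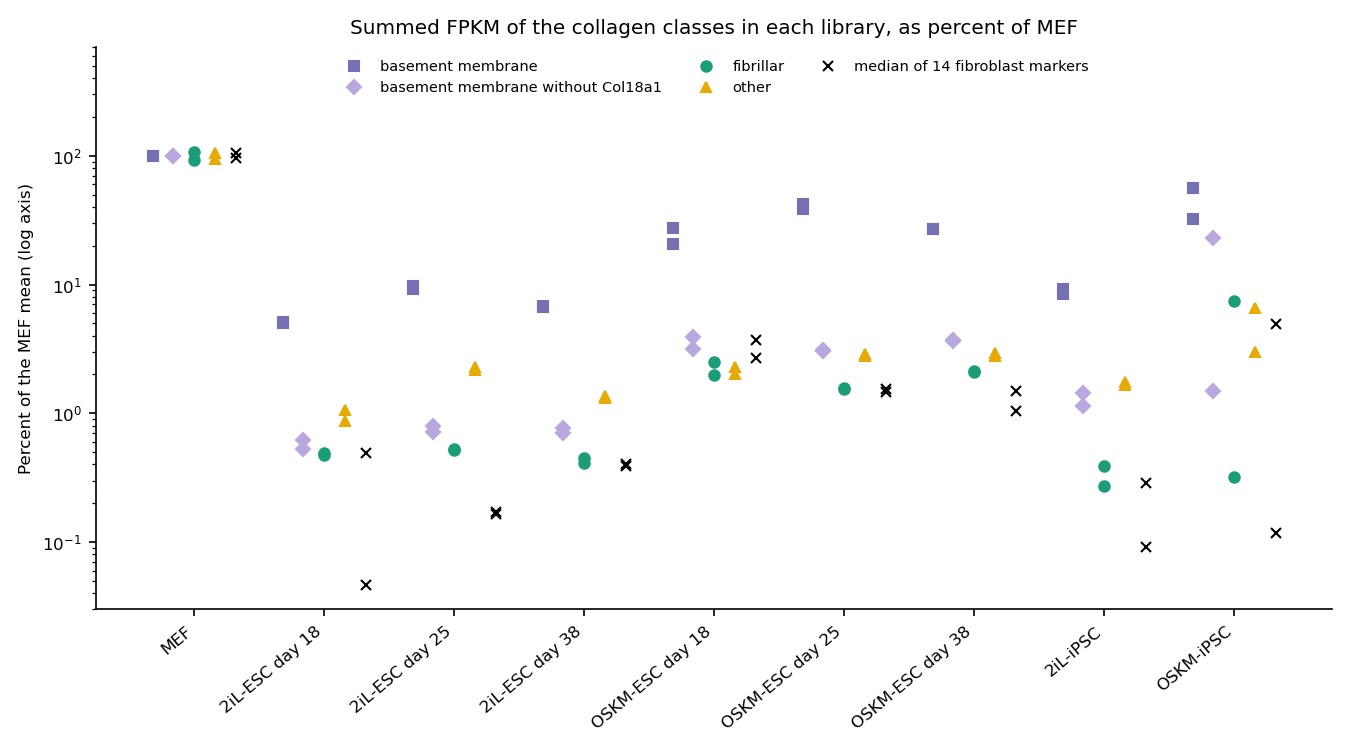
Summed FPKM of the collagen classes in each library as percent of the mean of the 2 MEF libraries (log axis), with 1 point per library, and the median percent of MEF of 14 fibroblast markers. Without Col18a1, the basement membrane class lies between 3.04% and 3.88% in OSKM-ESCs, near the fibrillar class and the markers.

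The 2 OSKM-iPSC clones were far apart. The fibrillar sum was 7.50% of MEF in clone 1 and 0.320% in clone 3, and the basement membrane sum without Col18a1 was 23.1% and 1.498%. Clone 3 lay within the range of the 2iL-iPSC clones for the fibrillar class (0.273% and 0.392%), and clone 1 lay above all other pluripotent libraries. Levels of single members are therefore printed by clone, and means over the 2 clones, where given, hide this spread.

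Markers of fibroblasts were set beside these sums, in the same libraries. Within groups they did not always follow the fibrillar sum. In the 2iL-ESC cultures of day 18 the median of the markers was 0.494% and 0.0463% of MEF, where the fibrillar sum was 0.476% and 0.489%. The median of the 14 markers was between 1.04% and 3.67% of MEF in OSKM-ESCs, between 0.0463% and 0.494% in 2iL-ESCs, 4.91% and 0.117% in OSKM-iPSC clones 1 and 3, and 0.287% and 0.0921% in the 2iL-iPSC clones. Their summed level was 15.3 to 28.5 FPKM in OSKM-ESCs and 6.98 to 9.85 FPKM in 2iL-ESCs. In OSKM-ESCs against 2iL-ESCs, 7 of the 9 markers tested were higher and 1 was lower, where 29.5% of all genes tested were higher and 24.4% lower. Only 3 of the 9 exceeded 1 FPKM in any 2iL-ESC culture, so these counts are no support by themselves. The part of the markers in the collagen levels was not tested, and in bulk samples fewer cells of a type and less RNA per cell cannot be told apart. Col6a5, Col9a2, Col13a1, Col22a1 and Col26a1 were above both MEF libraries in all 16 pluripotent libraries, of either medium, with Col22a1 at no more than 0.172 FPKM. Col18a1 was above both MEF libraries in all of these except the 2iL-ESC cultures of day 18.

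The question of the main comparison was how the medium with induced OSKM factors differed from 2iL in ESCs. Genes exceeding 1 FPKM in any library of a comparison were tested with limma on log2(FPKM + 1) and day as a covariate, and called at a Benjamini-Hochberg adjusted p under 0.05 over all genes tested. Of the 44 members 20 were tested, and 14 of them were higher and 2 lower in OSKM-ESCs, where 53.8% of all 14016 genes tested were called, 29.5% higher and 24.4% lower. Of the 20, 12 passed the filter through OSKM-ESCs alone and 1 through 2iL-ESCs alone, so these counts are no support by themselves. Of the 7 that passed in both media, Col18a1, Col1a1, Col1a2, Col5a1, Col5a2 and Col4a1 were higher and Col9a2 was lower. For those 6 higher members the lowest OSKM-ESC culture exceeded the highest 2iL-ESC culture, which held for 14.6% of all genes tested. Each had an exact 2-sided permutation p of 0.0022 over the 6 and 6 cultures, permuted without regard to day. That is the smallest value that 6 against 6 can give, and it follows from the lack of overlap, so it adds no further support. The other 8 higher members were also without overlap, but they passed the filter through OSKM-ESCs alone. The difference of each member is a log2 fold change of FPKM + 1, which understates the change of a low gene.

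Col18a1 carries the endostatin domain at its end and spans chr10:77052178-77166548 on the minus strand (GRCm38). Its lowest, median and highest levels were 64.0, 84.7 and 141 FPKM over the 6 OSKM-ESC cultures, and 16.01, 21.7 and 32.2 FPKM over the 6 2iL-ESC cultures. The OSKM-iPSC clones 1 and 3 were at 123 and 111 FPKM, the 2iL-iPSC clones 3 and 6 at 28.4 and 26.3 FPKM, and the MEF libraries at 17.7 and 17.9 FPKM. No OSKM library overlapped a 2iL library, and all OSKM libraries were above both MEF libraries. The difference in ESCs was a log2 fold change of 2.03 (SE 0.0741, limma adjusted p = 2.2e-09), and as percent of MEF the levels were 550% ± 169 in OSKM-ESCs and 130% ± 38.5 in 2iL-ESCs (SD, n = 6). Col18a1 overlaps Slc19a1 on the opposite strand, and the library kit does not mark strand, so reads in the overlap cannot be assigned to one of them.

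Among the chains of the type IV network, Col4a1 was at 6.14, 6.85 and 7.26 FPKM (lowest, median and highest) in OSKM-ESCs and at 1.45, 1.67 and 1.96 FPKM in 2iL-ESCs. It was at 42.4 and 3.05 FPKM in OSKM-iPSC clones 1 and 3, at 3.87 and 2.95 FPKM in the 2iL-iPSC clones 3 and 6, and at 175 and 178 FPKM in MEF. Col4a2 was at 3.19, 3.77 and 5.34 FPKM in OSKM-ESCs and at 0.264, 0.659 and 0.945 FPKM in 2iL-ESCs. Both ESC groups were fully apart for both chains, and both were far below MEF. In the clones, Col4a2 was at 33.7 and 2.05 FPKM in OSKM-iPSCs and at 1.02 and 0.924 FPKM in 2iL-iPSCs, against 137 and 133 FPKM in MEF. Only OSKM-iPSC clone 1 stood out. The log2 fold changes in ESCs were 1.56 for Col4a1 (SE 0.0798, limma adjusted p = 2.5e-08) and 1.60 for Col4a2 (SE 0.143, limma adjusted p = 2.2e-06). The 2 genes lie head to head on chromosome 8 (11198423 to 11312826 and 11312805 to 11449287), and their annotated 5′ ends share 22 bases. Without strand, reads from the shared bases cannot be assigned. Type IV chains are also a product of primitive and parietal endoderm. The summed level of 11 markers of those cells was 113 to 151 FPKM in OSKM-ESCs and 70.8 to 89.2 FPKM in 2iL-ESCs. In the clones it was 266 and 79.8 FPKM (OSKM-iPSC 1 and 3) and 116 and 104 FPKM (2iL-iPSC 3 and 6). It was 1127 and 1040 FPKM in MEF, where 6 of the 11 were over 1 FPKM. A high sum therefore does not tell those cells from fibroblasts. Of these markers 4 of 7 tested were higher in OSKM-ESCs and none was lower, where 29.5% of all genes tested were higher and 24.4% lower. Only 3 of the 7 exceeded 1 FPKM in any 2iL-ESC culture, so these counts are no support by themselves. Gata4, Gata6, Sox7 and Cubn stayed under 1 FPKM in all ESC cultures, whereas in OSKM-ESCs Dab2 reached 2.21 FPKM, Foxa2 3.31 FPKM, Sox17 2.35 FPKM and Pdgfra 1.76 FPKM, against at most 0.183, 0.0554, 0.510 and 0.127 FPKM in 2iL-ESCs. Their part in the type IV levels was not tested.

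Col4a5, a chain of another type IV network and the third highest basement membrane gene in MEF (22.95 and 21.6 FPKM), was at 0.234, 0.469 and 0.9996 FPKM in OSKM-ESCs and at 0.0279, 0.0464 and 0.118 FPKM in 2iL-ESCs. In OSKM-iPSCs it was at 2.11 FPKM in clone 1 and listed at 0 in clone 3, and the 2iL-iPSC clones were at 0.0290 and 0.0209 FPKM. It was not tested in ESCs, since no culture exceeded 1 FPKM. Col4a3, Col4a4, Col4a6 and Col15a1 were under 1 FPKM in all 16 pluripotent libraries.

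Of the 8 fibrillar chains tested, 6 were higher and 1 was lower in OSKM-ESCs. Types I and III were between 0.714% and 3.99% of MEF there, whereas Col27a1, which was not called, was between 45.4% and 90.4%. Col1a1 (chr11:94936224-94953042), whose locus carries the OSKM transgene in all these cells, was at 4.02, 5.42 and 10.7 FPKM in OSKM-ESCs and at 1.05, 1.15 and 1.52 FPKM in 2iL-ESCs. It was at 28.1 and 0.114 FPKM in OSKM-iPSC clones 1 and 3, at 0.275 and 0.170 FPKM in 2iL-iPSC clones 3 and 6, and at 609 and 518 FPKM in MEF. Col1a2, the partner chain on another chromosome, was at 3.68, 4.47 and 8.25 FPKM in OSKM-ESCs and at 0.561, 0.646 and 1.29 FPKM in 2iL-ESCs. The partner chain thus differed between the media to a similar size, with log2 fold changes of 1.61 for Col1a1 (SE 0.138, limma adjusted p = 1.7e-06) and 1.76 for Col1a2 (SE 0.0910, limma adjusted p = 2.7e-08). In the clones Col1a2 was at 36.1 and 0.130 FPKM (OSKM) and at 0.144 and 0.102 FPKM (2iL), against 516 and 440 FPKM in MEF. For both chains, clone 3 of the OSKM-iPSCs was at or under the higher of the 2iL-iPSC clones.

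Col3a1, the main chain of elastic and vascular tissue, was at 2.88, 3.49 and 5.92 FPKM in OSKM-ESCs and at 0.251, 0.513 and 0.873 FPKM in 2iL-ESCs, with a log2 fold change of 1.69 (SE 0.0918, limma adjusted p = 4.0e-08). It was at 14.4 and 0.0247 FPKM in OSKM-iPSC clones 1 and 3, at 0.155 and 0.0169 FPKM in the 2iL-iPSC clones, and at 176 and 121 FPKM in MEF. Again clone 1 was above every other pluripotent library and clone 3 lay between the 2iL-iPSC clones. Col5a1 and Col5a2, chains of the type V collagen that sits inside type I fibrils, were at 3.69, 4.91 and 5.89 FPKM and at 2.09, 2.52 and 5.60 FPKM in OSKM-ESCs. In 2iL-ESCs they were at 0.928, 1.65 and 2.41 FPKM and at 0.857, 0.974 and 1.56 FPKM, with log2 fold changes of 1.15 (SE 0.162) and 0.96 (SE 0.111) and limma adjusted p of 9.2e-05 and 1.8e-05. For both genes the 2 groups of cultures did not overlap, and the adjusted p of Col5a2 was 0.081 in a single fit of all 9 conditions. In the OSKM-iPSC clones 1 and 3 Col5a1 was at 15.2 and 1.73 FPKM and Col5a2 at 18.7 and 0.412 FPKM, and in the 2iL-iPSC clones 3 and 6 they were at 2.42 and 1.90 FPKM and at 0.446 and 0.104 FPKM. In MEF Col5a1 was at 123 and 111 FPKM and Col5a2 at 233 and 217 FPKM.

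Col5a3 went the other way in ESCs. It was at 0.184, 0.289 and 0.394 FPKM in OSKM-ESCs and at 0.451, 0.665 and 1.02 FPKM in 2iL-ESCs, without overlap of the groups (12% of all genes tested had every OSKM-ESC value under the 2iL-ESC values), and it fell by 0.41 on the log2 scale (SE 0.0905, limma adjusted p = 0.0022). A single 2iL-ESC culture of day 25 carried it over the filter. The clones were at 0.540 and 0.379 FPKM (OSKM) and at 0.373 and 0.559 FPKM (2iL), and MEF at 1.76 and 1.95 FPKM. In the clones the media overlapped.

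Col2a1, the fibrillar chain of cartilage, which is also made by early embryonic epithelia, was at 0.921, 3.25 and 12.8 FPKM in OSKM-ESCs and at 0.568, 0.641 and 0.839 FPKM in 2iL-ESCs. Its log2 fold change over all days was 1.65 (SE 0.300, limma adjusted p = 0.00061), and the spread in OSKM-ESCs followed the day, as described with the days. In the clones it was at 4.36 and 1.64 FPKM (OSKM) and at 1.61 and 0.902 FPKM (2iL), and in MEF at 49.7 and 47.8 FPKM. Cartilage markers were low in the same cultures, since the summed level of the 6 markers was 1.07 to 2.62 FPKM in OSKM-ESCs and 0.812 to 1.89 FPKM in 2iL-ESCs. Sox9, the transcription factor that activates Col2a1 in cartilage, was at 0.430, 0.657 and 1.87 FPKM in OSKM-ESCs and listed at 0 in all 6 2iL-ESC cultures. Of the 6 markers 2 were tested, with Sox9 higher and Acan lower, where 29.5% of all genes tested were higher and 24.4% lower. Sox9 passed the filter through OSKM-ESCs alone, and the part of these markers in the Col2a1 level was not tested.

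Of the other types, 3 chains of type VI, which forms beaded filaments around cells, were higher in OSKM-ESCs, while Col6a5 was not called and Col6a4 and Col6a6 were not tested. Col6a1 was at 1.53, 1.66 and 2.48 FPKM in OSKM-ESCs and at 0.0385, 0.219 and 0.312 FPKM in 2iL-ESCs, with a log2 fold change of 1.25 (SE 0.116, limma adjusted p = 3.0e-06). Col6a2 was at 0.825, 1.06 and 2.37 FPKM against 0.0416, 0.0884 and 0.115 FPKM, and Col6a3 at 0.237, 0.316 and 1.10 FPKM against 0.0256, 0.0751 and 0.137 FPKM. None of the 3 genes overlapped between the groups. The log2 fold changes of the latter 2 were 1.083 (SE 0.127, limma adjusted p = 2.1e-05) and 0.47 (SE 0.129, limma adjusted p = 0.0085). Col6a1 and Col6a2 were listed at 0 in both 2iL-iPSC clones and were at 5.01 and 3.95 FPKM in OSKM-iPSC clone 1 and at 0.147 and 0.205 FPKM in clone 3. Col6a3 was at 1.39 and 0.110 FPKM in the OSKM-iPSC clones, and at 0.0362 FPKM and 0 in the 2iL-iPSC clones. The MEF levels were 120 and 104 FPKM for Col6a1, 68.9 and 56.9 FPKM for Col6a2, and 53.2 and 48.7 FPKM for Col6a3.

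Col7a1, the chain of the anchoring fibrils of skin, was at 0.799, 1.05 and 1.55 FPKM in OSKM-ESCs and at 0.0955, 0.200 and 0.364 FPKM in 2iL-ESCs, with a log2 fold change of 0.79 (SE 0.106, limma adjusted p = 6.4e-05). It was at 4.03 and 0.489 FPKM in the OSKM-iPSC clones, 0.190 and 0.171 FPKM in the 2iL-iPSC clones, and 7.04 and 8.46 FPKM in MEF. Col8a2, a chain of the type VIII network below endothelia, was at 0.364, 0.904 and 1.14 FPKM in OSKM-ESCs and at most 0.0566 FPKM in 2iL-ESCs, of which 4 of 6 cultures were listed at 0. Its level in OSKM-ESCs lay around that of MEF (0.878 and 0.781 FPKM), with a log2 fold change against 2iL-ESCs of 0.78 (SE 0.110, limma adjusted p = 9.1e-05). It was at 0.658 and 0.385 FPKM in the OSKM-iPSC clones and listed at 0 in both 2iL-iPSC clones.

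Its partner chain behaved differently. Col8a1 was at 79.6 and 71.7 FPKM in MEF, at most 0.697 FPKM in OSKM-ESCs and at most 0.0506 FPKM in 2iL-ESCs, and was not tested there. In OSKM-iPSC clone 1 it was at 3.29 FPKM, and in the other 3 clones it was listed at 0. Col12a1, a collagen on the surface of type I fibrils, was at 101 and 92.4 FPKM in MEF and at 0.179, 0.355 and 0.703 FPKM in OSKM-ESCs, against 0.0257, 0.0565 and 0.0889 FPKM in 2iL-ESCs. The OSKM-iPSC clones were at 2.28 and 0.0366 FPKM and the 2iL-iPSC clones at 0.0340 and 0.0316 FPKM.

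Col9a2, a chain of the cartilage collagen IX, was lower in OSKM-ESCs. Its level was 0.583, 1.10 and 1.29 FPKM there and 1.14, 3.45 and 6.12 FPKM in 2iL-ESCs, so that the groups overlapped at the lowest 2iL-ESC culture. It fell by 1.10 on the log2 scale (SE 0.211, limma adjusted p = 0.00085). In the clones it was at 1.60 and 5.86 FPKM (OSKM) and at 3.67 and 4.81 FPKM (2iL), and in MEF at 0.402 and 0.247 FPKM. The clone with the lowest fibrillar level among the OSKM-iPSCs, clone 3, was thus the one with the highest Col9a2 level.

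**Figure D3:**
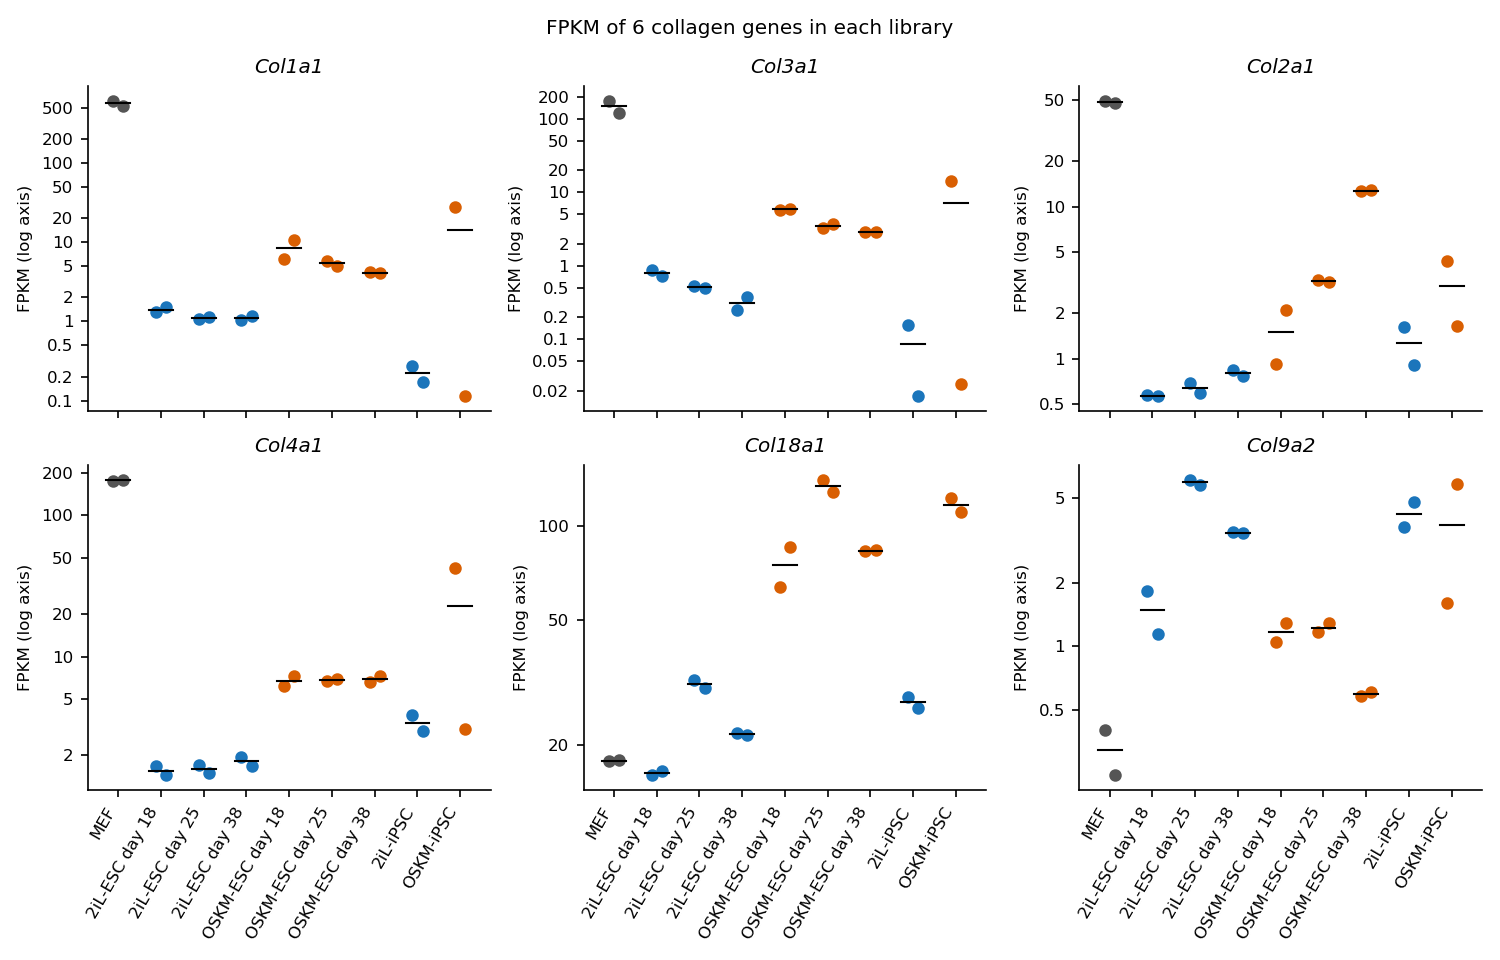
FPKM of 6 collagen genes (log axes that differ between panels) in each library, by condition, with a line at the mean of each pair. For Col18a1 the OSKM libraries (64.0 to 141 FPKM) all lie above MEF (17.7 and 17.9 FPKM), whereas Col1a1, Col3a1 and Col4a1 lie far below MEF and the OSKM-iPSC clones are apart.

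The remaining 4 tested members were not called. These were Col27a1 (log2 fold change 0.29, SE 0.117, limma adjusted p = 0.052), Col26a1, Col6a5 and Col13a1, with limma adjusted p between 0.26 and 0.67 for the latter 3. The 24 members that were not tested were under or at 1 FPKM in all 12 ESC cultures. Of all 44 members, 34 had a higher mean in OSKM-ESCs and 4 were listed at 0 in every ESC culture. The former count includes members far under 1 FPKM, and the share over all genes was not computed, so it is no support by itself.

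**Figure D4:**
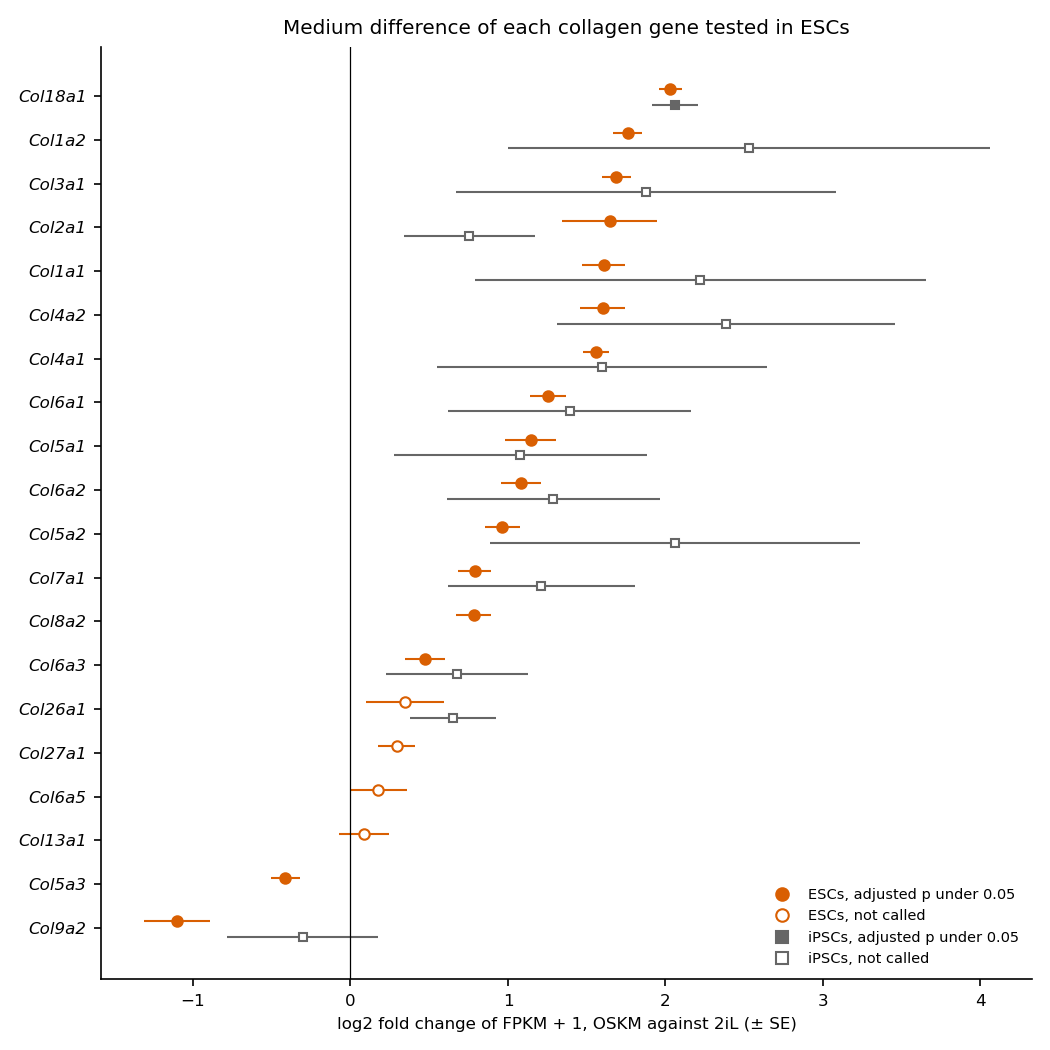
log2 fold change of FPKM + 1 (± SE) between the OSKM and the 2iL medium for the 20 members tested in ESCs (circles) and, where tested, in iPSCs (squares), filled where the adjusted p is under 0.05. Col18a1 has a similar value in both cell sources (2.03 and 2.06), and the SE of most other members is several times wider in iPSCs.

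In iPSCs, 21 members were tested and only Col18a1 was called, as higher in OSKM-iPSCs, where 7.96% of 13653 genes tested were called, 5.0% higher and 2.96% lower. Its log2 fold change was 2.06 (SE 0.145, limma adjusted p = 0.0072), and both OSKM-iPSC clones were above both 2iL-iPSC clones. Col1a1, Col4a1 and Col4a2 had log2 fold changes of 2.22 (SE 1.43), 1.60 (SE 1.05) and 2.38 (SE 1.07), with limma adjusted p of 0.35, 0.35 and 0.21. No member was called lower, and none reached an unadjusted p under 0.05 in that direction. Clone 1 was above both 2iL-iPSC clones in 20 of the 21 members and clone 3 in 12, and 13 of the 21 passed the filter through clone 1 alone. The ratio of clone 1 to clone 3 was 246 for Col1a1, 277 for Col1a2, 584 for Col3a1 and 13.9 for Col4a1, whereas it was 1.11 for Col18a1 and 1.16 for Col26a1.

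The calls in iPSCs rested on single clones. Without OSKM-iPSC clone 3, 17 of 20 members tested were called higher, where 1392 of 13369 genes were, and 13 members had passed the filter through clone 1 alone. Without clone 1 only Col18a1 was called higher, of 8, where 501 of 13084 genes were. In both cases 1 library stood for OSKM-iPSCs, and the spread was that of the 2iL-iPSC pair alone. Without either 2iL-iPSC clone no gene at all was called, and the adjusted p of Col18a1 was 0.32 in both cases. In a fit of all 9 conditions, which borrows the spread of the ESC and MEF pairs, 11 of 21 members were called higher, where 3800 of 13653 genes were. Over all genes the calls numbered 683 higher and 404 lower, 552 higher and 512 lower with median-ratio scaling, and 422 higher and 440 lower with quantile normalization. The median log2 fold change of all genes went from 0.09 to -0.02 with the latter, and the call of Col18a1 held in both. Passage differed between the 2 kinds of clones, so that passage and medium cannot be told apart.

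Whether the medium difference itself differed between ESCs and iPSCs was tested for 26 members, and none was called in either direction, where 14.2% of genes were called, 5.55% higher and 8.67% lower. With an unadjusted p under 0.05 in limma, 1 member (Col2a1) was higher and 1 (Col5a3) was lower. The difference between the ESC and the iPSC effect was -0.03 for Col18a1 (SE 0.137, limma adjusted p = 0.90). For Col1a1 it was -0.62 with an SE of 1.16, which leaves room for a large difference in either direction. Without OSKM-iPSC clone 1, 11 of 21 members were called higher and 2 lower, where 1370 and 2071 of 14457 genes were. Without clone 3, 17 of 25 were called lower, where 2316 of 14506 genes were, and each of these fits had 1 library for OSKM-iPSCs, so that this comparison too depended on which clone stood for the medium. Over all genes 811 were called higher and 1268 lower, and 1018 and 1042 with median-ratio scaling.

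The medium difference changed with the day in ESCs for 14 of the 20 members tested (F test of the medium by day interaction in limma), where 37.9% of all genes were called. The count was 9 with a pseudocount of 0.1. The 14 were all 9 tested members of the other types, 4 fibrillar genes and Col4a2. Of these, Col26a1, Col13a1, Col27a1 and Col8a2 passed the filter through OSKM-ESCs of day 38 alone. Col6a5 and Col6a3 passed it through OSKM-ESCs of day 25 alone. The calls of these genes, and so the count, are no support by themselves. Col2a1 changed most. In OSKM-ESCs it was at 0.921 and 2.09 FPKM at day 18, 3.28 and 3.21 FPKM at day 25, and 12.6 and 12.8 FPKM at day 38. In 2iL-ESCs it stayed between 0.568 and 0.839 FPKM. The log2 fold change was 0.63, 1.37 and 2.93 at days 18, 25 and 38, with a limma adjusted p of the interaction of 0.00043.

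Col26a1, a collagen of reproductive tissue, was at 0.285 and 0.549 FPKM at day 18, 0.485 and 0.357 FPKM at day 25, and 2.82 and 2.30 FPKM at day 38 in OSKM-ESCs, and between 0.231 and 0.838 FPKM in 2iL-ESCs. Its log2 fold change was -0.06, -0.34 and 1.44 over the 3 days (limma adjusted p = 0.00023). Col13a1, a transmembrane collagen, had a similar course, with -0.07, -0.40 and 0.73 (limma adjusted p = 0.00077). Both OSKM-ESC cultures of day 38 were above all 2iL-ESC cultures for both genes, and those of day 25 were under the 2iL-ESC cultures of day 25 for Col13a1 and Col26a1 alike. The type VI genes were furthest apart at day 25. The log2 fold changes of Col6a1 were 1.03, 1.66 and 1.07, those of Col6a2 were 0.82, 1.55 and 0.88, those of Col6a3 were 0.22, 0.97 and 0.23, and those of Col6a5 were -0.35, 0.94 and -0.07. Col9a2 was near equality at day 18 (-0.19) and lower in OSKM-ESCs at days 25 (-1.65) and 38 (-1.48), with a limma adjusted p of 0.00066.

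**Figure D5:**
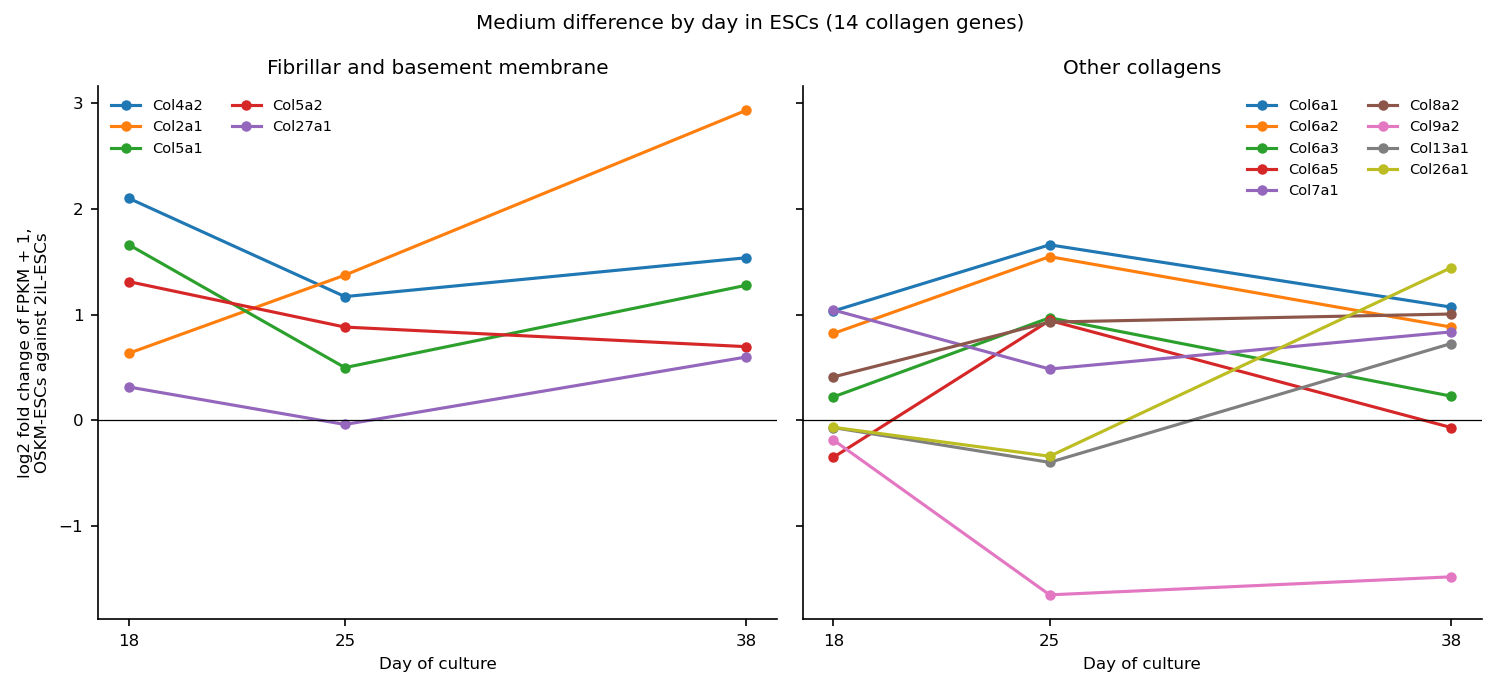
log2 fold change of FPKM + 1 between OSKM-ESCs and 2iL-ESCs at days 18, 25 and 38 (means of 2 cultures against 2) for the 14 members with a called medium by day interaction. Col2a1 rises from 0.63 to 2.93, Col26a1 is above 0 at day 38 alone, and Col9a2 is lowest at day 25 (-1.65).

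Within OSKM-ESCs 12 of 19 members differed between the days (38.6% of all genes), and within 2iL-ESCs 4 of 8 did (50.8% of all genes). Of these, Col26a1, Col13a1, Col8a2, Col6a5 and Col6a3 passed the filter through 1 day alone in OSKM-ESCs. Col1a2 passed it through day 18 alone in 2iL-ESCs, so these calls are no support by themselves. Col18a1 differed in both media and was highest at day 25, with 141 and 129 FPKM against 64.0 and 85.8 FPKM at day 18 and 83.6 FPKM in both cultures of day 38 in OSKM-ESCs, and with 32.2 and 30.4 FPKM against 16.01 and 16.4 FPKM and 21.9 and 21.6 FPKM in 2iL-ESCs. Its medium difference was nearly the same on each day (log2 fold changes of 2.12, 2.07 and 1.90, limma adjusted p of the interaction = 0.49). Col1a1, Col1a2, Col3a1 and Col5a2 differed between the days in OSKM-ESCs and had their highest levels at day 18, when the fibroblast markers were also highest (26.4 and 28.5 FPKM summed, against 15.3 to 19.9 FPKM at the later days). Markers of other lineages were also measured at day 38. The 5 trophoblast markers summed to 27.2 and 25.2 FPKM in OSKM-ESCs of day 38 and to 3.03 to 6.90 FPKM at earlier days. In each OSKM-ESC culture only 1 of the 5 was over 1 FPKM, and 3 were listed at 0 in both cultures of day 38. The number of the 11 endoderm markers over 1 FPKM was 7 in both OSKM-ESC cultures of day 38 and 3 in each earlier one. Their sum, most of which was Sparc and Lamb1, was 113 and 119 FPKM at day 38 and 117 to 151 FPKM earlier. The part of these lineage markers in the day course of the members was not tested. Over all days, 4 of 5 neural markers tested were higher and 1 lower in OSKM-ESCs, 1 of 2 trophoblast markers was higher, and of the 8 pluripotent cell markers 1 was higher and 5 were lower. Of all genes tested, 29.5% were higher and 24.4% lower. Only 3 of the 5 neural markers exceeded 1 FPKM in any 2iL-ESC culture, so their count is no support by itself. The summed level of the 7 neural markers listed was 42.8 to 63.5 FPKM in OSKM-ESCs and 50.6 to 72.7 FPKM in 2iL-ESCs.

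Against MEF, most members tested were lower in the clones. Of 30 members tested in OSKM-iPSCs, 23 were lower and 3 higher, where 60.3% of genes were called, 26.4% lower and 34.0% higher. In 2iL-iPSCs 27 of 30 were lower and 3 higher, where 78.0% of genes were called, 37.4% lower and 40.6% higher. Of the lower members, 9 of the 23 and 23 of the 27 passed the filter through MEF alone, where they are high, so these counts are no support by themselves. Among all 44 members, 9 had a mean above that of MEF in each kind of clone. These 2 comparisons share the MEF libraries. The higher members were Col18a1, Col26a1 and Col9a2 in both, with log2 fold changes of 2.65, 1.43 and 1.67 in OSKM-iPSCs and of 0.59, 0.78 and 1.98 in 2iL-iPSCs. All 10 fibrillar genes tested were lower in both, from -8.85 for Col1a1 in 2iL-iPSCs to -0.72 for Col27a1 in OSKM-iPSCs. Col4a1, Col4a2, Col7a1 and Col9a3 were not called in OSKM-iPSCs, with limma adjusted p of 0.052, 0.056, 0.079 and 0.21. The median log2 fold change over all genes was 0.19 in the OSKM-iPSC comparison and 0.03 with median-ratio scaling, and in the 2iL-iPSC comparison it was 0.09, and -0.01 with TPM. Without either MEF library no gene was called in the OSKM-iPSC comparison.

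The number of members above both MEF libraries in all cultures of a group was 6 in OSKM-ESCs and 5 in 2iL-ESCs. Apart from Col18a1 these were all of the other types, and each of those was under 1 FPKM in MEF. In the OSKM-ESCs Col18a1 and Col27a1 exceeded the highest fibroblast marker, as percent of MEF, in each of the 6 cultures. There, the median of the 27 members over 1 FPKM in MEF was 2.30% to 3.15%. Col18a1 did so in every other pluripotent library too. Col27a1 also did in both 2iL-ESC cultures of day 25, culture 2 of day 38, both OSKM-iPSC clones and 2iL-iPSC clone 6. In MEF Col27a1 was at only 1.17 and 1.65 FPKM.

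Chains that assemble into the same trimer were compared by their FPKM ratio in libraries where both were over 1 FPKM. The ratio of Col1a1 to Col1a2 was 1.13 ± 0.166 in OSKM-ESCs (SD, n = 6), 1.18 ± 0.00167 in MEF (SD, n = 2) and 0.780 in OSKM-iPSC clone 1. The ratio of Col4a1 to Col4a2 was 1.80 ± 0.355 in OSKM-ESCs (SD, n = 6), 1.37 ± 0.165 in OSKM-iPSCs and 1.31 ± 0.0520 in MEF (SD, n = 2 each), and it was 3.79 in 2iL-iPSC clone 3, where Col4a2 was close to 1 FPKM. The ratio of Col5a1 to Col5a2 was 1.69 ± 0.716 in OSKM-ESCs (SD, n = 6) and 0.520 ± 0.00951 in MEF (SD, n = 2), and type V was the pair with the largest gap between these 2 groups, of the 4 pairs computed. Its 6 OSKM-ESC values ran from 0.819 to 2.69, all above both MEF values. These ratios depend on the unit. From the deposited mean coverage per base, the ratio of Col1a1 to Col1a2 was 2.40 in OSKM-ESCs and 2.48 in MEF.

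Collagen chains need enzymes and chaperones, proteases and receptors, and these were described by lists of genes. Of 19 genes of chain modification and folding, 17 were tested in ESCs. Of these 6 were higher and 5 lower in OSKM-ESCs, where 29.5% of all genes tested were higher and 24.4% lower. The largest differences were those of Fkbp10, a prolyl isomerase of procollagen (21.6 to 27.5 FPKM against 1.16 to 1.82 FPKM, log2 fold change 3.28), P3h4, a partner of lysyl hydroxylase (12.1 to 17.7 FPKM against 0.857 to 2.68 FPKM, 2.49), and Serpinh1, the collagen chaperone HSP47 (83.3 to 157 FPKM against 48.2 to 71.4 FPKM, 1.11). Of 14 genes of procollagen processing and cross-linking, 11 were tested, and 7 were higher and 1 lower. Only 4 of the 11 exceeded 1 FPKM in any 2iL-ESC culture, so these counts are no support by themselves. Pxdn, the peroxidase that cross-links type IV collagen, had a log2 fold change of 3.38 (9.74 to 28.8 FPKM against 0.264 to 1.12 FPKM) and reached the level of MEF (20.2 and 22.2 FPKM). Bmp1, the procollagen C-proteinase, had one of 2.13 (3.08 to 7.31 FPKM against 0.136 to 0.304 FPKM). Pcolce, the enhancer of that protease, fell by 2.37 on the log2 scale, from 70.4 to 102 FPKM in 2iL-ESCs to 8.34 to 31.6 FPKM in OSKM-ESCs.

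Of 9 collagen receptors only Itgb1, a shared integrin chain, and Ddr1, a receptor tyrosine kinase for collagen, were tested, and both were higher, with log2 fold changes of 0.26 and 1.25. Of 11 genes of collagen degradation 6 were tested, of which 5 were higher and 1, the protease inhibitor Timp1, was lower (-0.50). Of all genes tested, 29.5% were higher and 24.4% lower. Only 3 of the 6 degradation genes exceeded 1 FPKM in any 2iL-ESC culture, so their count is no support by itself. The largest differences were those of Mrc2, an uptake receptor for collagen (2.37), Mmp2, a gelatinase (1.90), and Mmp14, a membrane-bound collagenase (1.76). In iPSCs 1 gene each of the last 3 lists was called, of 10, 3 and 8 tested, all as higher in OSKM-iPSCs, namely Pxdn, Ddr1 and Mrc2. Of the first list 0 of 17 genes were called, where 5.0% of all genes tested were higher and 2.96% lower.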

How the data were processed

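RNA-Seq had been done on poly-T selected RNA with a kit that does not mark strand. The authors aligned reads to GRCm38/mm10 with STAR 2.7.1a, kept uniquely mapped reads and deposited 1 StringTie 2.0 table per library with FPKM, TPM and mean coverage per gene. Cuffdiff 2.2.1, which the authors used for differential expression, needs aligned reads and was not run. Of 55471 genes, 2 with failed values in some library were dropped, and 11 repeated identifiers, none of a collagen, were summed. The deposited TPM values were usable in 16 libraries and recomputed for 2, and the deposited coverage served for depth and chain ratios only.

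Genes that exceeded 1 FPKM in any library of a comparison were fitted with limma 3.58.1 in R 4.3.3 (lmFit and eBayes with a trend) on log2(FPKM + 1), after a test on simulated data. P-values were adjusted by Benjamini-Hochberg over all genes tested, and calls were made at 0.05. The ESC fit had day as a covariate. Exact 2-sided permutation tests were run over the 12 ESC cultures, without regard to day, with numpy 2.4.6 in Python 3.11.15. Groups were taken from the sample labels, and percentages refer to the mean of the 2 MEF libraries. Values in full are given for members called between the media in ESCs or iPSCs, for the 3 highest of each class in MEF and for the 3 highest over the pluripotent libraries. The other genes with full values, such as Col26a1, and the examples from the lists were chosen after their values were seen. The members and the lists (chain modification and folding, procollagen processing and cross-linking, receptors, degradation, and markers of fibroblasts, pluripotent cells, endoderm, neural cells, cartilage and trophoblast) were chosen with earlier results of these data known. Alternatives were a pseudocount of 0.1, no filter, a filter on 2 libraries, median-ratio scaling, quantile normalization, TPM, no trend, a fold over 2 with an unadjusted p, a single fit of all conditions, a replicate block and leaving out each library.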

Additional observations from a re-analysis of the deposited data

Results flagged for a closer look

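In 3 of the 44 groups of 6 cultures examined, 1 culture stood apart from the other 5, where chance gives about 1 in 20. Col1a1 was at 10.7 FPKM in culture 2 of the OSKM-ESCs of day 18, and the next culture was at 6.20 FPKM. Col8a1 was at 0.0506 FPKM and Col8a2 at 0.0566 FPKM in culture 1 of the 2iL-ESCs of day 18, where the next cultures were at 0.0105 and 0.0211 FPKM.

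The medium difference varied between the days in 14 members by the limma interaction test (adjusted p under 0.05). Of these, Col26a1, Col13a1, Col27a1, Col8a2, Col6a5 and Col6a3 passed the filter through a single day of OSKM-ESCs. The range of the log2 fold changes over the 3 days was 2.30 for Col2a1, 1.78 for Col26a1, 1.46 for Col9a2, 1.29 for Col6a5, 1.16 for Col5a1 and 1.12 for Col13a1. It was 0.93 for Col4a2, 0.75 for Col6a3, 0.73 for Col6a2, 0.64 for Col27a1, 0.62 for Col6a1, 0.61 for Col5a2, 0.59 for Col8a2 and 0.56 for Col7a1.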

How the results depend on the processing

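Of the 14 members higher in OSKM-ESCs, the count was 26 of 40 without a filter, 23 of 29 with TPM and 13 to 15 without single libraries. The 2 lower members became 1 with a filter on 2 libraries, with median-ratio scaling and, as an alternative chosen after seeing the data, without members that overlap a gene on the other strand, and 1 to 2 without single libraries. In iPSCs the 1 higher member became 0 without a filter, 11 in the single fit and 0 to 17 without single libraries, and the count of lower members stayed at 0. Against MEF, leaving out single libraries gave 0 to 3 higher and 0 to 25 lower in OSKM-iPSCs, and 1 to 3 higher and 25 to 27 lower in 2iL-iPSCs. The 14 members with a medium by day interaction became 9 with a pseudocount of 0.1, 22 without a filter and 10 to 15 without single libraries. Between ESCs and iPSCs, 1 member was called lower without a filter and 1 with TPM, and without single libraries 0 to 11 were higher and 0 to 17 lower. For days in 2iL-ESCs the count was 11 without a filter, 8 with TPM and 3 to 4 without single libraries, and for days in OSKM-ESCs 7 to 12. The cause was not tested.

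Without OSKM-iPSC clone 1 the iPSC log2 fold change of Col4a1 was -0.11 and that of Col9a2 was 0.40, the opposite of the reported direction. Without single libraries they ranged from -0.11 to 3.31 and from -1.004 to 0.40.

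As a median over members in place of a sum, the fibrillar class was at 3.84% of MEF in OSKM-ESCs and 1.40% in 2iL-ESCs. In OSKM-iPSCs and 2iL-iPSCs it was at 6.60% and 1.49%. The basement membrane class was at 3.38%, 0.365%, 9.63% and 0.416% in OSKM-ESCs, 2iL-ESCs, OSKM-iPSCs and 2iL-iPSCs, and the others at 1.64%, 0.149%, 2.17% and 0.0356%. Without Col18a1, chosen after seeing the data, the basement membrane sum was at 3.42%, 0.689%, 12.3% and 1.29%. The 12.3% is the mean of 23.1% and 1.498% in OSKM-iPSC clones 1 and 3. Median-ratio scaling gave 0.425% (fibrillar, 2iL-ESCs), 8.12% (basement membrane, 2iL-iPSCs), 2.21% (other, OSKM-ESCs) and 1.57% (other, 2iL-iPSCs), and TPM gave 8.05% and 1.55% for the basement membrane and other classes of 2iL-iPSCs. Without single libraries the fibrillar sum was 1.82% to 2.13%, 0.444% to 0.520%, 0.320% to 7.50% and 0.273% to 0.392% in the same order of groups, the basement membrane sum 28.2% to 32.4%, 6.56% to 7.49%, 32.5% to 56.3% and 8.41% to 9.28%, and the other sum 2.47% to 2.79%, 1.36% to 1.65%, 3.00% to 6.54% and 1.61% to 1.81%.

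With the replicate block, 14 members were higher and 2 lower in ESCs, and 10 had an interaction. Deviations of same-numbered cultures correlated at 0.131, 0.0904 and 0.012 at days 18, 25 and 38 over 14016 genes, so the numbers were not taken as pairs. Depth in reads is unknown, and groups of 2 limit the iPSC and MEF comparisons.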
